A study of Mus musculus with 14 samples.

Results

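The *Atp2b2*, *Atp2b1*, *Atp2c1*, *Atp2c2*, *Atp2a2*, *Orai1*, *Stim1*, *Stim2*, *Casr* and *Pthlh* genes move calcium through the milk-secreting cell or regulate that movement. All 10 were chosen by name and found once each among the 20550 genes listed for the lactating mammary gland, 20515 of which had a usable symbol. Total RNA was sequenced from 2 mice at lactation day 10 (L10), called replicate 1 and replicate 2. The titles name both mice WT_wTbrg4, and the methods of the study describe the RNA as from heterozygous mice. These carry a wt allele beside the Wap-Tbrg4 allele, in which a CRISPR-Cas9 deletion joined the *Wap* super-enhancer and promoter to the body of *Tbrg4*. The names of the deposited tables carry an e in place of the w before Tbrg4, and the group was taken from the titles. The line was made in C57BL/6 zygotes, whole glands were used, and the age of the mice is not given in the sources used here. The 12 ChIP-seq samples of the study and RNA of mice without the fusion allele are not analysed here, so each value below describes 1 genotype and no genotypes are compared.

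A secretory mammary cell takes calcium from blood and releases it into milk, where most of it is bound to casein. The plasma membrane calcium ATPase encoded by *Atp2b2* (PMCA2) sits in the apical membrane and pumps calcium directly into milk, whereas the secretory pathway ATPases encoded by *Atp2c1* and *Atp2c2* (SPCA1 and SPCA2) load the Golgi, and the SERCA2 pump encoded by *Atp2a2* fills the endoplasmic reticulum (ER). When ER calcium falls, the sensors STIM1 and STIM2 open the ORAI1 channel in the plasma membrane, and SPCA2 is known to open the same channel without emptying of the stores. The calcium-sensing receptor encoded by *Casr* reads extracellular calcium, and parathyroid hormone-related protein (PTHrP), encoded by *Pthlh*, is released into the circulation in lactation and mobilizes calcium from bone.

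Levels are given as the deposited FPKM, fragments scaled to the length of the exons or introns and by a factor per library. Genes of different length may thus be compared. How the factor was set is not given in the sources used here. Each value carries 1 decimal. Single reads could still be recognized in very short introns and exons, where 1 read was worth 100.1 FPKM x bp in replicate 1 and 200.4 in replicate 2. At that rate the genes with a curated RefSeq model held an estimated 12000000 and 11100000 exon reads and 2600000 and 1300000 intron reads. The exon totals were thus similar while the worth of 1 read was not, so the scaling did not follow these totals. The 10 highest genes took 79.5% and 90.6% of the summed exon FPKM. *Tbrg4*, the targeted gene, had 314.7 and 291.5 exon FPKM, and with no mice of another genotype these values do not check the allele. The labelled tissue was checked on marker genes. All 6 markers of secretory alveolar epithelium were above 1 exon FPKM, with sums of 338956 and 876320. *Wap*, itself at the altered locus, gave 172935 and 234774 of these sums. The 3 neuronal markers summed to 0.1 and 0.0, 4 skeletal muscle markers to 20.5 and 7.6, 5 myoepithelial markers to 112.6 and 71.3, 4 adipocyte markers to 132.4 and 155.5, 3 endothelial markers to 46.1 and 40.1, 4 immune markers to 50.4 and 24.8, and 3 hormone-sensing luminal markers to 10.2 and 17.5. In whole tissue, fewer cells of a type and less RNA per cell cannot be told apart.

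The RNA of *Atp2b2*, the most abundant of the 10, may start at 3 places that RefSeq places within 150541 bp on chromosome 6, and the exons of all transcripts were collapsed before counting. The 250 bases before each start (GRCm38.p6, minus strand, RefSeq) are shown because the exon FPKM of *Atp2b2* does not tell the starts apart. Which of them are used in these glands was not measured. Capitals mark CpG dinucleotides, which number 16 before the first start and 6 before each of the others.
Atp2b2 start 1, chr6:114042081-114042330: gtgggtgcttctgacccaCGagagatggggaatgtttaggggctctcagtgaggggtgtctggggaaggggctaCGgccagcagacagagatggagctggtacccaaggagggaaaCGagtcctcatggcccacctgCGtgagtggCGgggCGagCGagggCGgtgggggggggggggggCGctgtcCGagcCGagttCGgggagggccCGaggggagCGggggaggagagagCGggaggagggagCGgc
Atp2b2 start 2, chr6:113934682-113934931: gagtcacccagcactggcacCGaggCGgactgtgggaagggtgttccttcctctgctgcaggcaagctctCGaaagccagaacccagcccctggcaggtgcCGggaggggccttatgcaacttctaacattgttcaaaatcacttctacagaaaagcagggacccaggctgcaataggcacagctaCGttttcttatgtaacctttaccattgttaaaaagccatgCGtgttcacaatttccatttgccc
Atp2b2 start 3, chr6:113891540-113891789: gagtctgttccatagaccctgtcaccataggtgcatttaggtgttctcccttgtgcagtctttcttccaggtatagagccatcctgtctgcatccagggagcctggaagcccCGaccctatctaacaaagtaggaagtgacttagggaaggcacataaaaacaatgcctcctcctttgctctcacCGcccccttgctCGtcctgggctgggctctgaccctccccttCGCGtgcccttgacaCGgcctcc
The GC content was 69.6% in the first stretch, 52.0% in the second and 55.6% in the last.

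STAT5, a transcription factor bound at the *Wap* super-enhancer, recognizes TTCNNNGAA, which reads alike on both strands. Of the 12 RefSeq windows for 8 of these genes, each from 250 bases before to 50 bases after a start, 1 held this sequence, compared with 8.30% of all 32851 such windows. It was that of *Orai1*, with TTCCAGGAA centered 203 bases before the start, shown in capitals in the plus-strand sequence of GRCm38.p6.
Orai1, chr5:123014824-123015073: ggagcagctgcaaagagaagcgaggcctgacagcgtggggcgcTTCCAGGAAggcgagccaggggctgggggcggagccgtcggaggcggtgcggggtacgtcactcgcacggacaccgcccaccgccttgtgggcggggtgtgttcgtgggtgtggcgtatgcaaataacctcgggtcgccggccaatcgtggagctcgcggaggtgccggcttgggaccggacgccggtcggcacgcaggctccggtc
The CRE sequence TGACGTCA, the recognition sequence of CREB, was in none of the 12 windows and in 1.79% of all windows. *Atp2c2* and *Atp2a2* had no entry. These matches describe letters in the reference and no binding was measured here.

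Exon RNA of 9 of the 10 genes was present at a mean of at least 1 FPKM, a level reached by 48.0% of all genes, and *Casr* was listed at 0.0 in both mice. Of the 9, 6 lay above the 90th percentile of the 9845 genes at or above 1 FPKM. The median of all 10 was 32.9 FPKM, compared with 5.7 FPKM over these 9845 genes. *Atp2b2* led, followed by *Atp2c2*, *Atp2c1*, *Stim2*, *Orai1*, *Pthlh*, *Atp2a2*, *Atp2b1* and *Stim1*. This order did not hold everywhere beyond the spread between the mice, because the values overlapped between *Atp2c2* and *Atp2c1*, between *Stim2* and *Orai1*, and between *Orai1* and *Pthlh*. All other neighbors were apart in both mice. With 2 mice an exact sign-flip permutation test cannot give a two-sided p below 0.5, so no p is given for any ratio between genes.

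**Figure D1:**
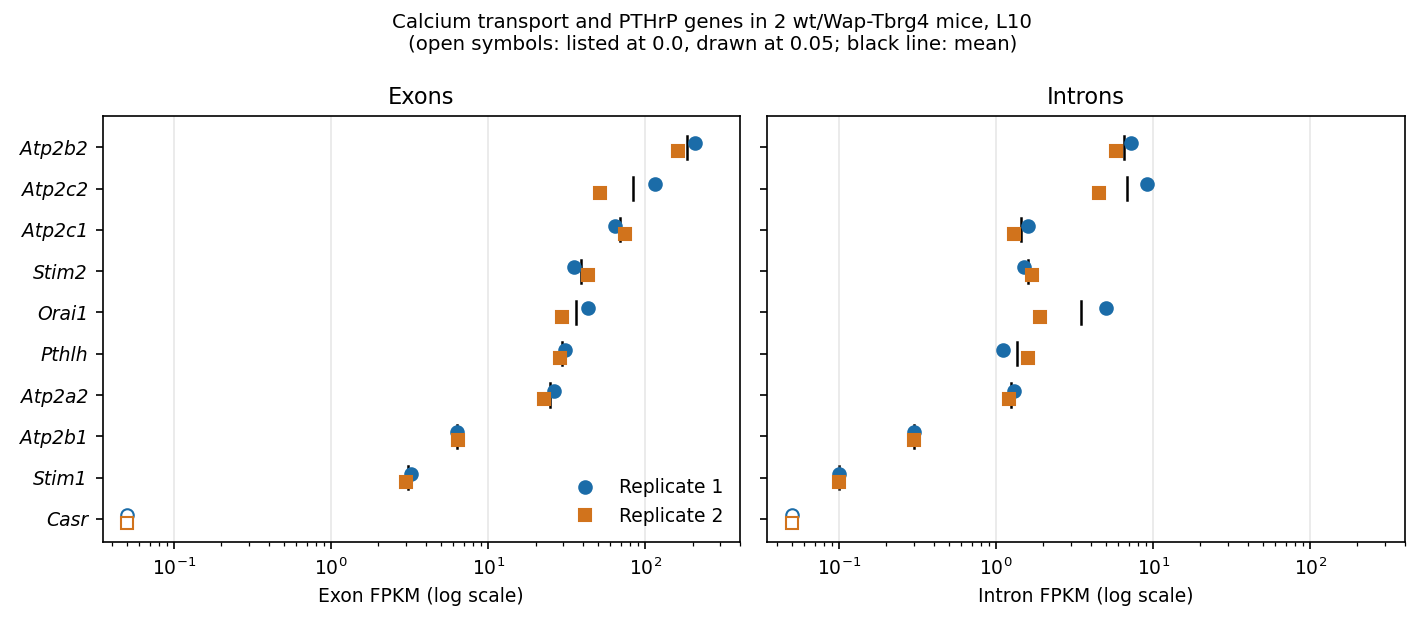
Exon FPKM (left) and intron FPKM (right) of the 10 genes on log axes, with circles for replicate 1, squares for replicate 2 and a black line at the mean. *Atp2b2* exons lie at 208.0 and 160.6, *Casr* is listed at 0.0 and drawn as open symbols at 0.05, and the mice are farthest apart for *Atp2c2* exons and introns and for *Orai1* introns.

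*Atp2b2*, the apical pump, occupies positions 113743831 to 114042080 of chromosome 6 (GRCm38, minus strand), with 27 collapsed exons of 9554 bp. Replicate 1 had 208.0 exon FPKM and replicate 2 had 160.6. The mean, 184.3 ± 33.5 (SD, n = 2 mice), was rank 120 of all genes and the 98.8th percentile of those expressed. The values rest on an estimated 19852 and 7657 reads, the largest number for any of the 10. Its introns had 7.2 and 5.8 FPKM, and their mean of 6.5 ± 0.990 (SD, n = 2) was at the 99.1st percentile of the 9535 genes with an exon mean of at least 1 and intron signal. Both kinds of RNA were thus somewhat lower in replicate 2, by ratios of 0.772 and 0.806. A lncRNA gene, *Gm15083*, lies across the first start on the other strand. The kit marks strand, but the strand setting used in counting is not given in the sources used here.

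*Atp2b1*, the widely expressed plasma membrane pump, was far lower than *Atp2b2*. It lies on chromosome 10 from 98914642 to 99026143. Its exon FPKM was 6.3 and 6.4 (mean 6.35 ± 0.0707, SD, n = 2), close to the median of expressed genes, and its intron FPKM was 0.3 in each mouse. *Atp2b2* exceeded *Atp2b1* 33-fold and 25.1-fold in exons, a mean log2 ratio of 4.85 ± 0.28 (SD, n = 2), and 24.0-fold and 19.3-fold in introns. Of the other pumps of this family, *Atp2b4* had 3.7 and 3.9 exon FPKM and *Atp2b3* was listed at 0.0 in both. *Atp2b2* accounted for 95.4% and 94.0% of the exon FPKM summed over the 4 genes. The coding sequences of *Atp2b2* and *Atp2b1* are identical at 73.8% of 3608 aligned positions, with no identical run above 20 bp, and neither has a near-identical copy elsewhere in the genome.

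The pumps of the Golgi were the next most abundant. *Atp2c2* (chromosome 8, 119700009 to 119757718, plus strand) reached 115.7 exon FPKM in replicate 1 but 51.5 in replicate 2, on average 83.6 ± 45.4 (SD, n = 2). *Atp2c1* (chromosome 9, 105411362 to 105521257, minus strand) had 64.0 and 74.2, on average 69.1 ± 7.21 (SD, n = 2). *Atp2c2* was therefore the higher of the pair in replicate 1, 1.81-fold, and the lower in replicate 2, at 0.694 of *Atp2c1*, so that no order was set by these mice.

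Introns gave a different picture of the same pair. The intron FPKM of *Atp2c2* was 9.1 and 4.5, compared with 1.6 and 1.3 for *Atp2c1*, so that *Atp2c2* was higher in both mice, 5.69-fold and 3.46-fold. Per unit of intron RNA, *Atp2c1* had the most exon RNA of the 9 expressed genes by the values as listed, with exon to intron ratios of 40.0 and 57.1, whereas *Atp2c2* had 12.7 and 11.4. The ratios of *Stim1*, 32 and 30, rest on intron values of 0.1, too coarse to set its place against *Atp2c1*. RefSeq lists 104618 bp of introns for *Atp2c1* and 54487 bp for *Atp2c2*. A lncRNA gene on the other strand, *Gm40564*, lies inside *Atp2c1*, and a pseudogene, *Gm52846*, lies inside *Stim2* in the same way.

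*Atp2a2*, the pump of the ER, lies on chromosome 5 from 122453513 to 122502225. Its exons had 26.4 and 22.7 FPKM, on average 24.55 ± 2.62 (SD, n = 2), and its intron FPKM was 1.3 and 1.2. *Atp2b2* exceeded it 7.88-fold and 7.07-fold in exons. *Atp2a2* held 85.4% and 87.3% of the summed exon FPKM of the 3 SERCA genes. *Atp2a3* had 1.7 and 1.2, and *Atp2a1*, the pump of fast skeletal muscle, had 2.8 and 2.1 beside muscle markers that summed to 20.5 and 7.6. The part of muscle RNA in the *Atp2a1* value was not tested. Taken over the 5 pump genes chosen here, *Atp2b2* contributed 49.5% and 50.9% of the exon FPKM.

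The genes of store-operated entry differed widely. *Orai1*, the channel, lies on chromosome 5 from 123015074 to 123030452 and had 42.9 and 29.4 exon FPKM, on average 36.15 ± 9.55 (SD, n = 2). *Stim2* (chromosome 5, 53998523 to 54121057) had 34.9 and 42.9, a mean of 38.9 ± 5.66, and *Stim1* (chromosome 7, 102267819 to 102437318) had 3.2 and 3.0, a mean of 3.1 ± 0.141. *Stim2*, the more sensitive of the ER calcium sensors, exceeded *Stim1* 10.9-fold and 14.3-fold in exons and 15-fold and 17-fold in introns, far beyond the spread between the mice. The intron FPKM of *Stim1*, 0.1 in each mouse, stands at the smallest step above 0.0 that the files can show, so its ratio carries a wide rounding error. *Stim2* and *Stim1* share 70.5% of 1778 aligned coding positions, with no identical run above 15 bp.

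*Orai1* differed most between the mice in its introns. Its introns had 5.0 FPKM in replicate 1 but 1.9 in replicate 2, a ratio of 0.380, while its exons stood at a ratio of 0.685. An estimated 675 and 128 reads lay behind the intron values. Against *Stim2*, the *Orai1* exons were higher in replicate 1 (1.23-fold) and lower in replicate 2 (0.685). Among the other channels, *Orai3* had 8.2 and 8.3 exon FPKM and *Orai2* had 0.3 and 0.2. *Orai1* accounted for 83.5% and 77.6% of the 3 channel genes together. *Orai2* has 1 near-identical copy in the genome, which may divert its reads.

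*Pthlh*, the gene of PTHrP, occupies positions 147252109 to 147264013 of chromosome 6 (minus strand). Its exons had 30.6 and 28.7 FPKM, on average 29.65 ± 1.34 (SD, n = 2), the 90.5th percentile of expressed genes. An estimated 441 and 206 reads lay behind these values. Its introns had 1.1 and 1.6 FPKM, on average 1.35 ± 0.354 (SD, n = 2), so that the exons stood slightly lower and the introns higher in replicate 2. The intron ratio of 1.45 rests on an estimated 115 and 84 reads, for which counting alone gives a 95% interval of ± 0.41 around the log2 ratio of 0.52.

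*Casr*, the gene of the calcium-sensing receptor, occupies positions 36490585 to 36562134 of chromosome 16 (minus strand). It was listed at 0.0 in exons and introns of both mice. With 7645 bp of exons, an exon value that rounds to 0.0 allows at most 3 reads in replicate 1 and 1 read in replicate 2. The introns span 63905 bp, so an intron value of 0.0 allows more reads than this. *Casr* has no near-identical copy and no overlapping RefSeq gene. A listed 0.0 need not be an absence of RNA in these files. *Acta2*, a smooth muscle and myoepithelial gene, was also listed at 0.0 beside 69.2 and 38.8 FPKM of *Myh11*, and *Gapdh* and *Ppia*, which every cell uses, had exon FPKM of 0.1 and 0.3 and of 0.4 and 0.0. They belong to 10 widely used or structural genes looked at after the values were seen, of which 7 had a mean of at least 1, among them *Actb* with 502.1 and 404.8 and *Eef1a1* with 731.2 and 799.7. Near-identical copies were sought for *Casr* but not for *Acta2*, *Gapdh* or *Ppia*, so these need not be like cases.

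**Figure D2:**
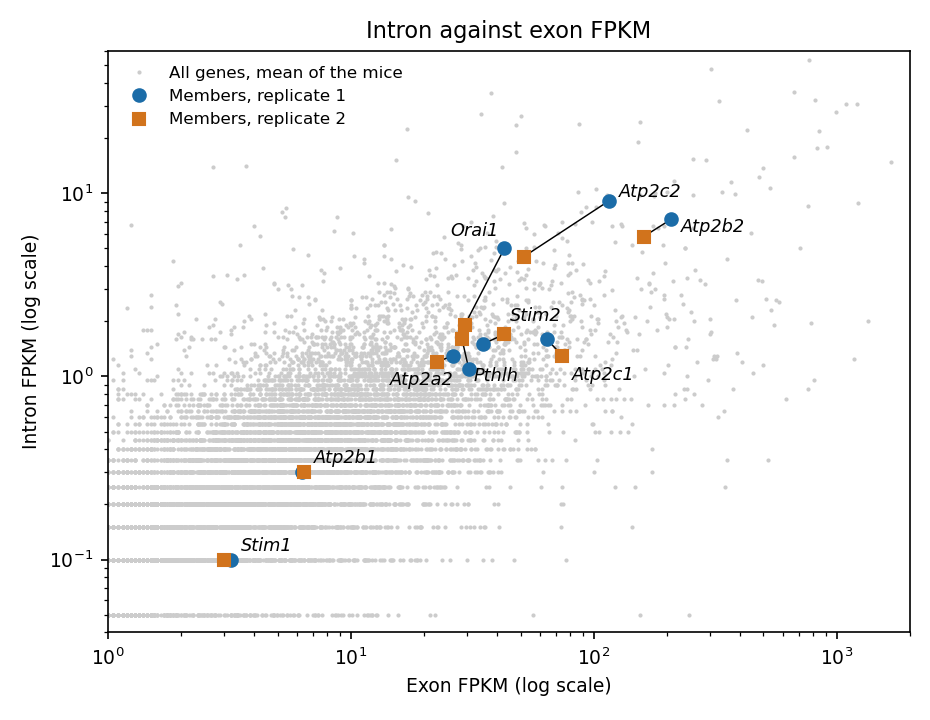
Intron FPKM against exon FPKM on log axes, with grey points for the means of all genes at or above 1 exon FPKM, circles for replicate 1, squares for replicate 2 and a line joining the mice for each gene. *Atp2c2* and *Orai1* stand high in intron FPKM for their exon FPKM, and *Atp2c1* stands low. The horizontal bands come from values with 1 decimal, and *Casr* and genes beyond the ends of the axes are not drawn.

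Intron RNA, which stands for RNA not yet spliced, followed exon RNA across the 9 expressed genes with a Spearman correlation of 0.917, where the points share both libraries. The log2 ratio of intron to exon FPKM, with 0.05 added to each, had a median of -4.39 over these 9 genes and of -3.72 over the 9535 genes with signal in both. *Orai1* (-3.50) and *Atp2c2* (-3.58) had the highest ratios and *Atp2c1* (-5.53) the lowest. Their percentiles among all genes with signal were 57.3, 54.7 and 8.94. Single mice differed here, since *Orai1* was at 73.0 in replicate 1 and 41.4 in replicate 2, and *Atp2c1* was at 13.3 and 7.07. Among genes at or above 10 exon FPKM they rose to 87.7, 86.1 and 25.2. The intron values of many weakly expressed genes lie within a few steps of 0.1. *Atp2b2* moved from the 19.0th to the 46.9th percentile in the same way.

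The mice share genotype and lactation day, and most of the 10 genes were close between them on the deposited scale. The summed exon FPKM of all genes was 852961 in replicate 1 and 1788120 in replicate 2. Closeness and direction between the mice therefore depend on how the libraries are scaled. The log2 ratio of replicate 2 to replicate 1, with 1 added to each exon FPKM, passed 2-fold in 1 of the 9 expressed genes, compared with 5.90% of the 9845 genes tested. That gene was *Atp2c2*, at -1.15. *Orai1* followed at -0.53, *Atp2b2* at -0.37 and *Atp2a2* at -0.21, *Pthlh* was at -0.09, *Stim1* at -0.07 and *Atp2b1* at 0.02, and *Atp2c1* and *Stim2* were at 0.21 and 0.29. The median of the 9 was -0.09, close to the -0.08 of all genes. From the estimated reads, counting gives 95% intervals of ± 0.11 for *Atp2c2* and ± 0.20 for *Orai1*, smaller than their differences. The intervals cover counting error only, since amplified reads are not independent molecules.

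**Figure D3:**
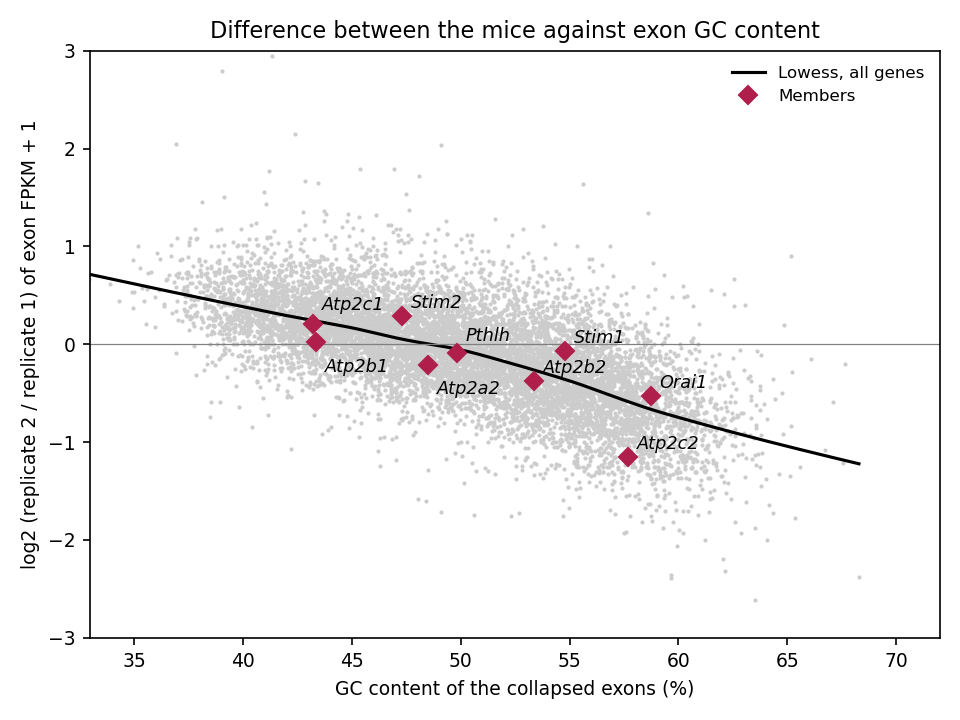
Replicate 2 over replicate 1, as the log2 ratio of exon FPKM + 1, against the GC content of the collapsed exons, with grey points for genes at or above 1 FPKM, a lowess line through them and diamonds for the 9 expressed genes. The line falls as GC content rises, *Orai1* lies near it, and *Atp2c2* lies below it. Genes beyond the ends of the axes are not drawn.

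GC content moved with these differences. Spearman's rho between the log2 ratio and exon GC content was -0.659 over the expressed genes and -0.817 over the 9 calcium genes, where all points come from the same pair of libraries. *Orai1* (58.7% GC) and *Atp2c2* (57.7%) are the most GC-rich of the 9, and *Atp2c1* (43.2%) and *Atp2b1* (43.4%) the least. With a lowess correction for GC content, the difference of *Orai1* exons was 0.059 in place of -0.53, that of *Atp2b2* was -0.18, and that of *Atp2c1* was -0.11 in place of 0.21. *Atp2c2* stood at -0.64 after the correction, no longer past 2-fold. The part of GC content in the difference of any single gene was not tested.

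Introns of 7 of the 10 genes reached a mean of 0.5 FPKM, as did those of 4220 of all 20515 genes. Of these, 2 were more than 2-fold apart, *Orai1* at -1.37 and *Atp2c2* at -1.01 (log2 with 0.05 added), compared with 8.63% of the 4220 genes at this level. After a correction for the GC content of introns, *Orai1* was at -1.23 and *Atp2c2* at -0.77. *Atp2c2* thus had lower exon and intron RNA in replicate 2 on both scales, and *Orai1* lower intron RNA, whereas the *Orai1* exons did not keep their direction. In the same mouse the immune markers (3 of 4 above 1 FPKM) summed to 24.8 compared with 50.4, mostly from *C1qa* at 19.6 compared with 44.8, while *Ptprc* was at 3.2 and 3.0. The myoepithelial markers (4 of 5 above 1, with *Acta2* listed at 0.0) summed to 71.3 compared with 112.6, with *Oxtr* higher at 23.6 compared with 18.9. The skeletal muscle markers (3 of 4 above 1) summed to 7.6 compared with 20.5. The secretory markers (6 of 6 above 1) summed to 876320 compared with 338956, mostly from *Csn2* at 481937 compared with 108555 and *Csn1s1* at 150368 compared with 48052, while *Lalba* and *Xdh* were slightly lower. Their part in these differences was not tested.

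Of 41 other genes of calcium handling and PTHrP signaling, 23 (56.1%) had a mean exon FPKM of at least 1, compared with the 48.0% of all genes given above. In both mice 11 of the 41 were listed at 0.0. Such values are common, since they begin at rank 14326 of all 20515 genes. The median of the 41 was 2.45 FPKM. The strongest were *Calr*, an ER calcium-binding chaperone, with 269.9 and 195.8, and *Tmem165*, a Golgi protein of calcium and manganese homeostasis, with 113.7 and 240.9. *Tmem165* thus stood in the range of *Atp2b2*, above it in replicate 2 and below it in replicate 1. All 3 Golgi genes were above 1, with *Sdf4*, which encodes a Golgi calcium-binding protein, at 22.2 and 17.5 and *Nucb1* at 5.7 and 3.6.

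**Figure D4:**
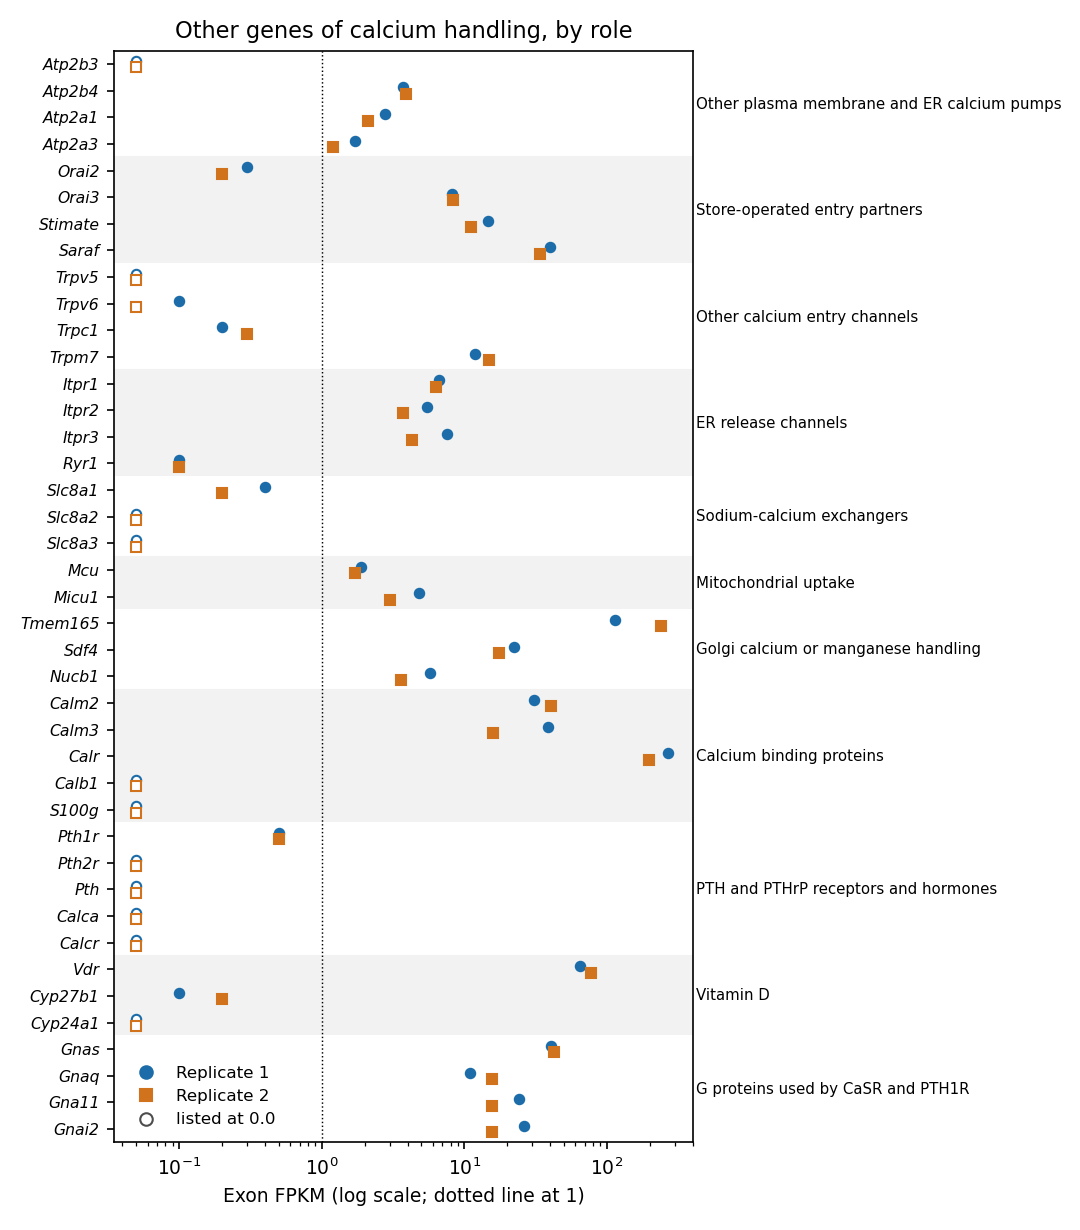
Exon FPKM on a log axis of 41 other genes of calcium handling, grouped by role in shaded bands, with circles for replicate 1, squares for replicate 2, open symbols at 0.05 for values listed at 0.0 and a dotted line at 1. *Calr* and *Tmem165* are highest, and the exchangers and the receptors and hormones of the PTH group lie below the line.

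Of 4 other channels for calcium entry, 1 reached a mean of 1 FPKM, namely *Trpm7*. *Trpv6* had 0.1 and 0.0 and *Trpv5* was listed at 0.0 in both mice, *Trpc1* had 0.2 and 0.3, and *Trpm7*, which passes divalent cations, had 11.8 and 14.8. None of the 3 sodium-calcium exchangers reached 1 (*Slc8a1* had 0.4 and 0.2). The inositol trisphosphate receptors, which release calcium from the ER, ranged from 4.6 for *Itpr2* to 6.45 for *Itpr1* as means, and *Ryr1* was at 0.1 in both mice. *Mcu*, the mitochondrial uniporter, had 1.9 and 1.7. The negative regulator of store-operated entry *Saraf* had 40.1 and 33.7, a level near that of *Orai1* and *Stim2*, and *Stimate*, listed under its older symbol *Tmem110*, had 14.6 and 11.1.

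Receptors of PTHrP and calcitonin were at low levels or listed at 0.0. *Pth1r*, the receptor of PTHrP, had 0.5 in each mouse, whereas *Pthlh* stood at 30.6 and 28.7. The *Pth1r* values rest on only an estimated 14 and 7 exon reads. *Pth*, *Pth2r*, *Calca* and the calcitonin receptor gene *Calcr* were listed at 0.0 in both mice. All 4 G protein genes used by CaSR and PTH1R were expressed, from a mean of 13.35 for *Gnaq* to 41.55 for *Gnas*. *Vdr*, the vitamin D receptor, had 65.1 and 77.7, above *Pthlh* in both mice, while *Cyp27b1*, which activates vitamin D, had 0.1 and 0.2 and *Cyp24a1*, which inactivates it, was listed at 0.0. The vitamin D-dependent buffers *Calb1* and *S100g* were also listed at 0.0 in both.

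*Calm2* and *Calm3* encode calmodulin, which activates the plasma membrane pumps. *Calm2* had 30.7 and 40.8 exon FPKM, whereas *Calm3* had 38.7 and 16.0. Of the 23 expressed genes of the list of 41, 2 were more than 2-fold apart between the mice, compared with 5.90% of the 9845 genes tested. They were *Calm3* at -1.22 and *Tmem165* at 1.08 on the log2 scale. With the GC correction *Calm3* was at -0.71 and *Tmem165* at 1.06. On the deposited scale *Tmem165* was thus among the 195 expressed genes past 2-fold after this correction, in the direction opposite to *Atp2c2*. Its values rest on an estimated 2154 and 2279 exon reads, where the genes with a curated model held 12000000 and 11100000. The difference of *Tmem165* between the mice therefore depends on how the libraries are scaled. *Calm2* has 3 near-identical copies in the genome and *Calm3* has 1, so their FPKM are uncertain.

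The genes nearest to *Atp2b2* in level were found by the Euclidean distance over 4 values, the log2 exon FPKM + 1 and the log2 intron FPKM + 0.05 in each mouse, among 9844 other expressed genes. *Ehf* was nearest, at a distance of 0.328, with 189.7 and 161.5 exon FPKM and 6.4 and 6.9 intron FPKM. *Rpl41* followed at 0.436 and *Elf5* at 0.470. With 2 mice this measure reflects the level of each gene and not a shared pattern across conditions.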

How the data were processed

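Mammary tissue of 2 wt/Wap-Tbrg4 mice at lactation day 10 was analysed. The authors isolated RNA with a PureLink kit, prepared TruSeq Stranded Total RNA libraries, sequenced these on an Illumina instrument, aligned with STAR to mm10, counted reads on collapsed exons and introns with HTSeq and computed FPKM with DESeq2. The deposited FPKM carry 1 decimal. The tool versions, strand setting, treatment of reads with several matches and scaling total are not given in the sources used here.

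Gene positions, lengths and GC content came from RefSeq on GRCm38.p6 and matched 99.7% of 20515 genes. Between the mice, log2 ratios used a pseudocount of 1 for exons and 0.05 for introns, over genes with a mean of at least 1 exon or 0.5 intron FPKM, so fold changes of low genes are understated. GC content was corrected by lowess over 30% of the genes. Percentiles are midranks. The worth of 1 read was estimated from features so short that their FPKM fall on steps, with 35 of 40 values (87.5%) and 189 of 218 (86.7%) within 0.2 of a whole read, a step added after the data were seen. The estimate was tested on simulated data and assumes RefSeq lengths, so the read numbers are approximate, and no count test was run with 1 group. Copies were called at 95% identity over 50% of the coding sequence with minimap2 2.31. Calculations used Python 3.11.15, pandas 2.3.3, scipy 1.17.1 and statsmodels 0.14.6.

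The genes, the lists and the measures were chosen with earlier results of these data known. The genes named are the 10 chosen genes, a list of 41 genes by role (a further gene of the list is not reported here), marker lists of 8 cell types and the 3 genes nearest to *Atp2b2*, besides those said to be picked later. The labels do not say whether the mice were littermates. Alternatives were other pseudocounts, filters and scalings, a GC correction, introns in place of exons and leaving out each mouse.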

Additional observations from a re-analysis of the deposited data

How the results depend on the processing

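Of 219 alternative values of 70 results, 165 stayed within the margin of their result. The margin was the SD of the mice (at least 0.05 for FPKM), the counting interval for ratios between the mice or 1.5-fold for counts of genes. In 104 alternatives 1 mouse was left out, and 92 of these stayed. A mean of 2 mice then always moves by less than their SD, so for such means this outcome was fixed in advance. Of the other 115 alternatives, 73 stayed. Log2 values changed sign in 7 of the 219, of which 3 (*Atp2b1* and *Stim1*) started from ratios within their counting interval. No paired analysis was possible because the 2 mice form 1 group. Rescaling each mouse to a summed exon FPKM of 1000000 gave means of the mice of 21.8 for *Atp2a2*, 5.48 for *Atp2b1*, 58.3 for *Atp2c1*, 26.0 for *Pthlh*, 2.71 for *Stim1* and 32.5 for *Stim2*. Ratios between the mice, which this scaling shifts, were not recomputed on it. With the GC correction the log2 ratio between the mice was -0.29 for *Atp2b1* (sign changed), -0.18 for *Atp2b2*, -0.11 for *Atp2c1* (sign changed), -0.64 for *Atp2c2*, 0.059 for *Orai1* (sign changed), 0.21 for *Stim1* (sign changed) and 0.16 for *Stim2*. The correction of introns, chosen after seeing the data, gave -0.12 for *Atp2b2*, -0.45 for *Atp2c1*, -0.77 for *Atp2c2* and -0.037 for *Stim2* (sign changed), and median centring gave -0.30 for *Atp2b2* and 0.0056 for *Stim1* (sign changed). The cause of these shifts was not tested.

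On introns, the log2 ratio was 2.37 for *Atp2b2* to *Atp2a2*, 4.43 for *Atp2b2* to *Atp2b1*, 2.15 for *Atp2c2* to *Atp2c1* and 4.0 for *Stim2* to *Stim1*, the last being 3.28 in exons with a pseudocount of 1. The exon ratio of *Atp2c2* to *Atp2c1* ranged from -0.53 without replicate 1 to 0.85 without replicate 2. Genes over 2-fold apart numbered 581, compared with 1102 with a pseudocount of 0.1, 231 at a mean of at least 10 FPKM and 195 after the GC correction.

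With no filter on low values the exon percentiles were 94.2 for *Atp2a2*, 77.8 for *Atp2b1*, 99.4 for *Atp2b2*, 98.4 for *Atp2c1*, 96.4 for *Orai1*, 95.4 for *Pthlh*, 66.1 for *Stim1* and 96.7 for *Stim2*. At a mean of at least 10 FPKM the intron to exon percentiles were 69.0 for *Atp2a2*, 46.9 for *Atp2b2*, 25.2 for *Atp2c1*, 86.1 for *Atp2c2*, 87.7 for *Orai1*, 61.8 for *Pthlh* and 56.7 for *Stim2*. With a pseudocount of 0.1 the log2 intron to exon ratio was -4.01 for *Atp2b1* and -4.0 for *Stim1*. Leaving out each mouse gave exon percentiles of 95.2 to 98.1 for *Atp2c2*, 90.37 to 90.40 for *Pthlh* and 29.2 to 31.0 for *Stim1*, and intron to exon percentiles of 33.8 to 33.9 for *Atp2a2*, 19.9 to 20.4 for *Atp2b2*, 53.8 to 54.7 for *Atp2c2* and 29.5 to 29.7 for *Stim1*. These percentiles moved over 1.5 times between the mice for *Orai1* (41.4 without replicate 1, 73.0 without replicate 2), *Atp2c1* (7.07 and 13.3) and *Pthlh* (35.5 and 22.8). Depth limits the exons of *Stim1*, with 134 and 63 estimated reads, and the introns of *Pthlh*, with 115 and 84, and rounding limits the introns of *Atp2b1* and *Stim1*, at 0.3 and 0.1 FPKM.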
